A study of Homo sapiens with 12 samples.

Results

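The long arm of chromosome 19 (19q) carries a dense run of zinc finger genes, and their promoters and gene bodies were examined in the ChIP-seq data of HCC70 cells. Members were all protein-coding genes of the GENCODE hg19 annotation on chromosome 19 that start above position 27000000 and whose symbol begins with ZNF and a digit. This gave 164 of the 20090 protein-coding genes on chromosomes 1 to 22 and X. The remaining 674 genes of 19q and the 351 ZNF genes elsewhere in the genome served for comparison. The rule uses position and symbol, and the family was chosen for description with earlier results of these data known.

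HCC70 is an established human cell line from a triple-negative breast cancer, a tumour type that lacks estrogen receptor, progesterone receptor and HER2. Cells at passages 6-9 were treated for 24 h with vehicle or with the RORγ antagonist XY018, at 5 µM by the labels and at a lower dose by the methods of the study. Chromatin was immunoprecipitated with antibodies to SREBP2, to RORγ and to acetylated lysine 27 of histone H3 (H3K27ac), with 1 vehicle and 1 XY018 library each. The 6 input libraries were not used here. With 1 library per group, no difference between treatments has a replicate check, no test was possible, and all intervals given are exact 95% intervals that cover counting error only.

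Zinc finger proteins of this family bind DNA through tandem C2H2 fingers, each of which contacts a few bases. Most of those encoded on 19q also carry a KRAB box, which recruits TRIM28 and, through it, the histone methyltransferase SETDB1, and the complex is known for silencing transposable elements through trimethylation of lysine 9 of histone H3. The genes lie in clusters that grew by tandem duplication, and the fingers of each are usually encoded in a single last coding exon. SREBP2 is the main activator of cholesterol synthesis genes, RORγ is a nuclear receptor that binds as a monomer to AGGTCA-type elements, and H3K27ac marks active promoters and enhancers. The comparison addressed here is what both factors and the mark show at these genes, and how the values differed with the RORγ antagonist.

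For SREBP2 the deposited vehicle list held 117441 regions and the XY018 list 69700, with 167264 and 129954 for RORγ and 95099 and 105371 for H3K27ac. From the deposited fold and p-value, the number of fragments at each summit (the highest point of a region) and the background were recovered. Depth in these terms ran from 3.65 to 6.16 tags per kb over the 6 libraries, and the SREBP2 library with XY018 was no shallower (5.92) than the one with vehicle (5.56). Both H3K27ac lists were selections from longer sets of calls, so a missing H3K27ac region means none in the deposited list. Of the 25000 highest-ranked H3K27ac peaks 99.9% were present in each list, and of the next 25000 94.7% with vehicle and 96.7% with XY018. Presence then fell, to 75.1% with vehicle and 81.9% with XY018 for ranks 50000 to 75000 (median 13 fragments in each list). For ranks 75000 to 100000 it was 48.96% and 57.8% (median 11 and 10 fragments). Weak H3K27ac regions were thus often missing, and more often with vehicle. Whether this accounts for weak H3K27ac calls with XY018 alone was not tested. As a check of the label, H3K27ac was called at all 5 breast epithelial genes tested, EPCAM, CDH1, KRT8, KRT18 and KRT19, with 68 to 238 fragments with vehicle. It was also called at 3 of 4 basal genes, KRT14 being without. With vehicle these had 231 fragments at EGFR, 33 at KRT5 and only 8 at KRT17. Over all protein-coding genes the share with an H3K27ac promoter region with vehicle was 66.8%. Of the hormone receptors, PGR had no H3K27ac region and ESR1 had 10 fragments with vehicle and 13 with XY018. The leukocyte genes PTPRC and CD3E had no promoter region in any library, while the fibroblast collagen gene COL1A1 had 110 and 142 H3K27ac fragments. PECAM1, also listed as a gene of other cells, was not found in the annotation used. RORγ and SREBP2 themselves were not perturbed genetically, so no targeted gene checks the libraries.

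Promoter sequences of 6 members, the 250 bases upstream of a transcript start in the GRCh37 (hg19) reference, show the range of DNA involved. Letters are lower case with every CpG dinucleotide in capitals. ZNF540 (chr19:38042058-38042307, plus strand) had most RORγ fragments among members without H3K27ac, ZNF471 (chr19:57018974-57019223, plus strand) most SREBP2 fragments among genes known to be methylated in tumours, and ZNF787 (chr19:56632665-56632914, minus strand) most H3K27ac. ZNF155 (chr19:44488090-44488339, plus strand) had H3K27ac without either factor. ZNF112 (chr19:44860833-44861082, minus strand) is the longest member without a promoter region in any library, and ZNF180 (chr19:45004575-45004824, minus strand) had the most SREBP2 fragments with vehicle among those without an SREBP2 call with XY018. The stretches hold 26, 22, 27, 15, 11 and 24 CpG in that order.
ZNF540: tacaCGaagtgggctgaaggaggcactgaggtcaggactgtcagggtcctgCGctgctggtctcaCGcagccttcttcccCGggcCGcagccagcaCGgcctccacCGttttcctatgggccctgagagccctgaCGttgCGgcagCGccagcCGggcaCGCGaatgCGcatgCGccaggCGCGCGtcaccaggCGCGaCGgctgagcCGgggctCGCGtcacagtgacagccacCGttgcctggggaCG
ZNF471: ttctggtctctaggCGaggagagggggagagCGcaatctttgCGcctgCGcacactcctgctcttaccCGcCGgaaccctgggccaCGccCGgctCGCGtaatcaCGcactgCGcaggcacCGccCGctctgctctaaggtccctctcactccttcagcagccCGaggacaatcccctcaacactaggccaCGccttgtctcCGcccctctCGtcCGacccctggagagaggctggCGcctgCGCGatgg
ZNF787: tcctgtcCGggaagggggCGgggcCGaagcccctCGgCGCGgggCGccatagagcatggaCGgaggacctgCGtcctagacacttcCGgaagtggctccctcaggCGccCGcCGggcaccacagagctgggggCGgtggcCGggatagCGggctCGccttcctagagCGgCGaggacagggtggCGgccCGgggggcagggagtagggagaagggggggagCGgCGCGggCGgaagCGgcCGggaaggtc
ZNF155: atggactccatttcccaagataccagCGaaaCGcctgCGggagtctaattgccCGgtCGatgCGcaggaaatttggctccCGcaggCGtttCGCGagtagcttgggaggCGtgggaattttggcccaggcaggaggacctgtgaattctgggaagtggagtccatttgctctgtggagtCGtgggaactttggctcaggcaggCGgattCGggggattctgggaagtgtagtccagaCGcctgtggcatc
ZNF112: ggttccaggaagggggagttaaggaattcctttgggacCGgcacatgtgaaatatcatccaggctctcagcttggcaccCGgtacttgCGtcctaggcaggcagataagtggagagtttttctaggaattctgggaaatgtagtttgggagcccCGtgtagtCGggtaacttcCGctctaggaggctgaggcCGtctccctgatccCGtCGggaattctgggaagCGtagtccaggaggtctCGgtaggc
ZNF180: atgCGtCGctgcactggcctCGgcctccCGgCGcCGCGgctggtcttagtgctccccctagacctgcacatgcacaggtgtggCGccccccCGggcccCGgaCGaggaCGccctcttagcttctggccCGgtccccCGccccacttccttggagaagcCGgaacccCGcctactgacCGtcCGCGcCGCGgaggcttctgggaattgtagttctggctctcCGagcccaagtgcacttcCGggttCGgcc
The median over all 164 promoters was 18 CpG in 250 bases, equal to the 18 of all protein-coding genes. By the same measure the 30 members with both factors and no H3K27ac had a median of 19, and the 43 with both factors and H3K27ac had 23. Regions called at alternative starts are not described by these medians. The printed stretch of ZNF540 is upstream of an alternative start 43469 bp from the representative one of that gene.

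Promoter regions were counted next, with promoter windows that reached 1000 bp upstream and 100 bp downstream of each annotated transcript start of a gene. With vehicle, SREBP2 had a region at 115 of the 164 promoters (70.1%, interval 62.5 to 77.0), against 70.6% of all protein-coding genes. With XY018 it had one at 78 (47.6%, 39.7 to 55.5), against 62.7%. The zinc finger promoters therefore stood at the level of all genes with vehicle and below it with XY018.

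RORγ was called at 85 members with vehicle (51.8%, 43.9 to 59.7) against 62.7% of all genes, and at 81 with XY018 (49.4%, 41.5 to 57.3) against 61.5%. H3K27ac was called at 99 with vehicle (60.4%, 52.4 to 67.9) against 66.8%, and at 106 with XY018 (64.6%, 56.8 to 71.9) against 68.0%. RORγ was thus below the share of all genes under both treatments by more than counting error, and the interval for H3K27ac included the share of all genes with XY018 and with vehicle.

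Regions at these promoters were also weaker than at most genes. The strongest promoter region held a median of 23 SREBP2 fragments with vehicle and 19 with XY018, where all called genes had 29 and 23. It was 15 and 15 for RORγ, against 24 and 21, and 34 and 31 for H3K27ac, against 60 and 66. The highest member values were 72 and 60 fragments of SREBP2, 86 and 85 of RORγ, and 229 and 296 of H3K27ac. Strongest regions touched the window of the representative transcript start at 87 of 115 members for SREBP2, 51 of 85 for RORγ and 87 of 99 for H3K27ac with vehicle, and the others lay at alternative starts.

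**Figure D1:**
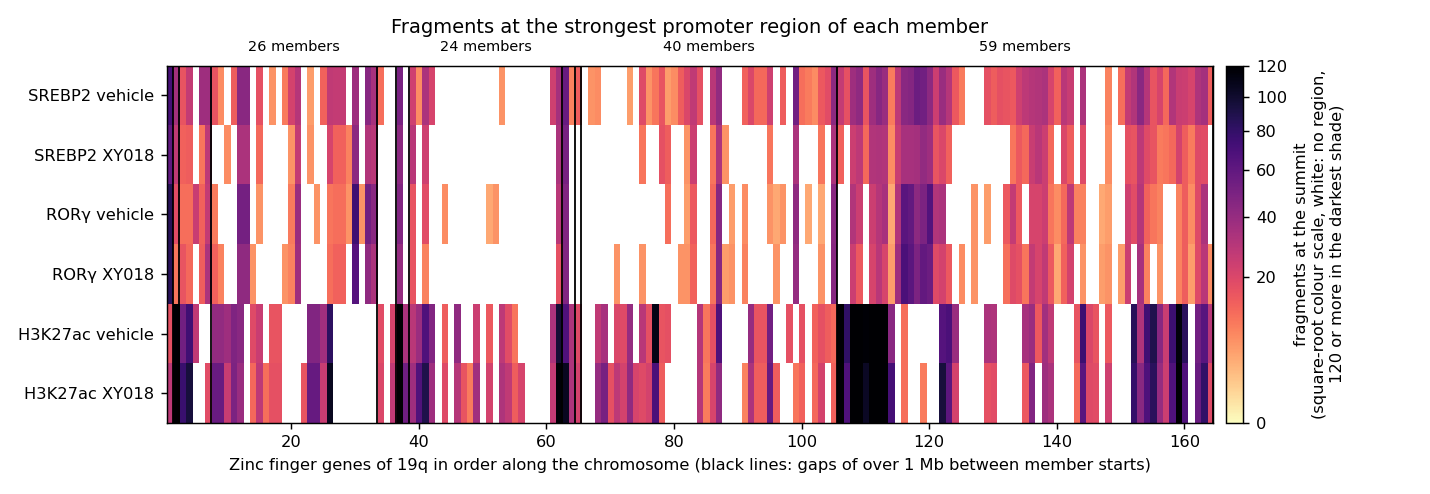
Fragments at the strongest promoter region of each of the 164 members, in order along chromosome 19 (horizontal axis), in each of the 6 libraries (rows). Darker shades stand for more fragments on a square-root colour scale that ends at 120, white stands for no region, and black lines mark gaps of over 1 Mb between member starts. The block near position 110 has dark H3K27ac, the block right after it has dark SREBP2 and RORγ and almost no H3K27ac, and the 24-member cluster is mostly white for both factors.

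Combinations of the 3 antibodies set the zinc finger genes apart from other genes more than single antibodies did. All 3 were present with vehicle at 43 members (26.2%, 19.7 to 33.6), against 50.6% of all genes. SREBP2 and RORγ without H3K27ac were found at 30 (18.3%, 12.7 to 25.1), against 9.69%. SREBP2 and H3K27ac without RORγ were found at 35 (21.3%, 15.3 to 28.4), against 8.0%. None of the 3 was found at 21 members (12.8%, 8.10 to 18.9), against 19.5%. Other genes of 19q had 14.99% and ZNF genes elsewhere 12.5%, both within the member interval. This last share therefore did not set the members apart from those groups. The other 35 members had other combinations. H3K27ac alone was at 16 (9.76%, 5.68 to 15.4, against 7.47% of all genes) and SREBP2 alone at 7 (4.27%, against 2.35%). RORγ alone was at 7 (4.27%, against 1.64%), and RORγ with H3K27ac at 5 (3.05%, against 0.767%). Regions of all 6 libraries were present at 35 members, or 21.3% against 46.3% of all genes.

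**Figure D2:**
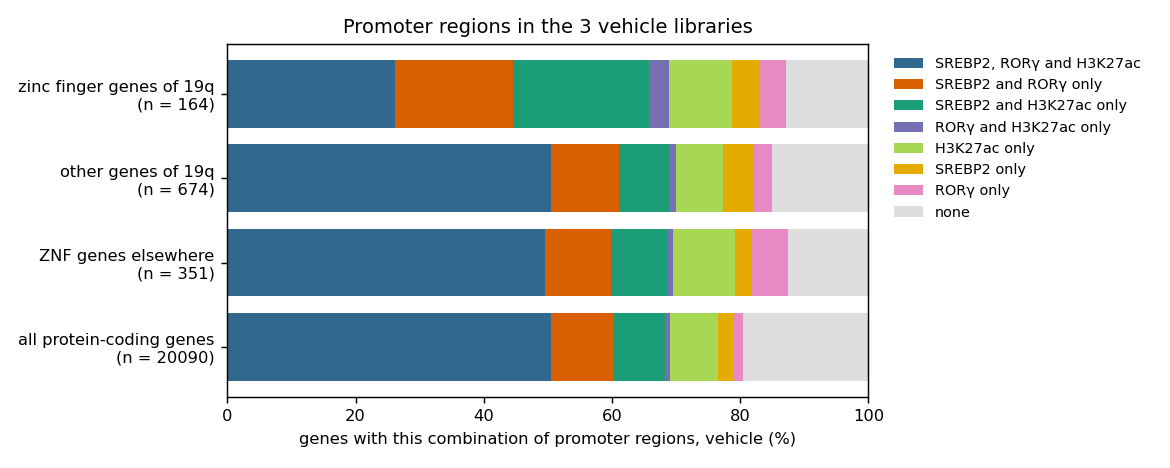
Share of genes (horizontal axis, percent) with each combination of promoter regions in the 3 vehicle libraries, for the 164 zinc finger genes of 19q, 674 other genes of 19q, 351 ZNF genes elsewhere and all 20090 protein-coding genes. The dark blue segment of all 3 antibodies is 26.2% of members against 50.6% of all genes, and the orange segment of both factors without H3K27ac is 18.3% against 9.69%.

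RORγ was not rarer at member promoters without H3K27ac than at those with it. Of the 99 members with an H3K27ac region, 48 had RORγ (48.5%, 38.3 to 58.7), and of the 65 without, 37 did (56.9%, 44 to 69.2). Over all protein-coding genes the shares were 76.8% and 34.1%, over other genes of 19q 77.3% and 40.4%, and over ZNF genes elsewhere 73.1% and 51.4%. For SREBP2 the order at members was that of other genes, with 78 of 99 (78.8%) against 37 of 65 (56.9%), and 87.7% against 36.3% over all genes. RORγ summits of at least 40 fragments were at 7 of the 99 members with H3K27ac (7.07%) and at 9 of the 65 without (13.8%). ZNF genes elsewhere had the same order, with 13.2% and 15.6%. All genes had 16.9% and 11.7%, and other genes of 19q 28.5% and 10.7%. Across members with both regions called, the rank correlation of vehicle fragments was 0.847 between SREBP2 and RORγ (73 members). It was 0.440 between SREBP2 and H3K27ac (78) and 0.249 between RORγ and H3K27ac (48). All protein-coding genes had the same order, with 0.783, 0.386 and 0.133. These are descriptions across genes, whose values share libraries, base composition and, for neighbours, regions.

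**Figure D3:**
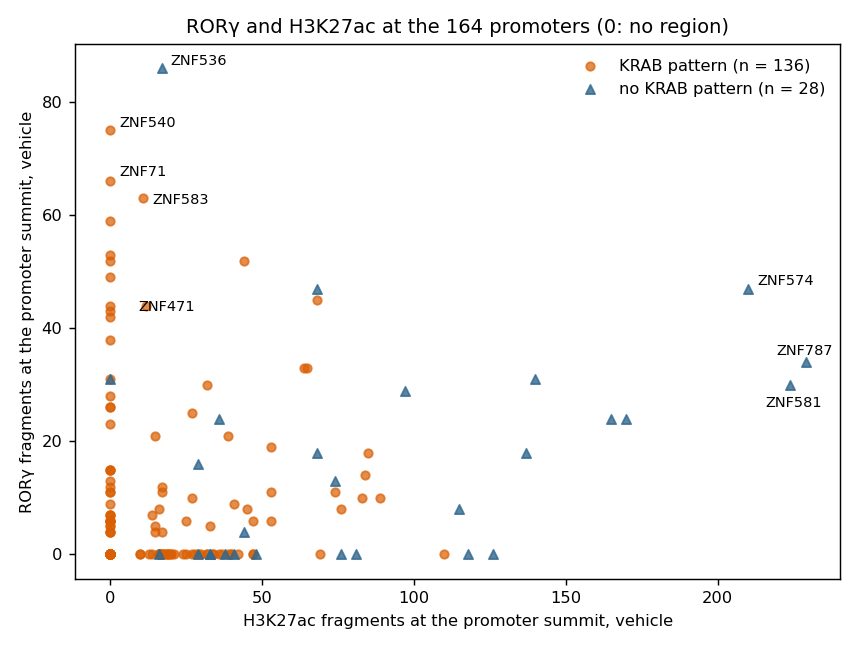
RORγ fragments (vertical axis) against H3K27ac fragments (horizontal axis) at the promoter summits of the 164 members with vehicle, with 0 for no region, circles for members with a KRAB pattern and triangles for those without. ZNF540 at 75 and ZNF71 at 66 RORγ fragments lie on the axis without H3K27ac, whereas ZNF787 with 229 H3K27ac fragments had 34 of RORγ.

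The 30 members with both factors and no H3K27ac include some of the strongest RORγ promoters of the family. A KRAB pattern is carried by 29 of the 30, and by 136 of all 164 members. ZNF540 had 37 (vehicle) and 43 (XY018) SREBP2 fragments, and 75 (59.0 to 94.0) and 65 (50.2 to 82.8) RORγ fragments. ZNF71 had 43 and 37 of SREBP2, and 66 (51.0 to 84.0) and 55 (41.4 to 71.6) of RORγ. ZNF667 had 46 and 34 of SREBP2 and 59 and 62 of RORγ. All of these values lay within the interval of the other treatment for RORγ where intervals are given, and neither H3K27ac list held a region at these 3 promoters.

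Other members of the same kind were ZNF607 with 45 and 31 SREBP2 and 53 and 42 RORγ fragments, and ZNF573 with 34 and 29, and 44 and 33. ZNF470 had 53 and 41 SREBP2 fragments, 49 and 59 RORγ fragments, and an H3K27ac region of 9 fragments with XY018 alone. ZNF792 had 37 and 28, 26 and 33, and 18 H3K27ac fragments with XY018 alone. At the weak end ZNF525 had 9 SREBP2 and 4 RORγ fragments with vehicle and none with XY018. Of the 30, 26 had no H3K27ac region in either library.

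In the reverse pattern, the 35 members with SREBP2 and H3K27ac alone had a median of 14 SREBP2 fragments with vehicle. That was below the 23 of all members with an SREBP2 call, and all genes with this combination also had 14. ZNF766 had 110 and 69 H3K27ac fragments beside 10 SREBP2 fragments with vehicle and none with XY018. ZNF628, encoding a protein without a KRAB box, had 126 and 141 H3K27ac fragments and 26 and 13 SREBP2 fragments, above both medians with vehicle. ZNF155, one of the 16 with H3K27ac alone, had 42 (30.3 to 56.8) and 30 (20.2 to 42.8) H3K27ac fragments.

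A group of 8 members known from the literature for promoter methylation in tumours was followed as a list, ZNF154, ZNF382, ZNF471, ZNF582, ZNF671, ZNF677, ZNF132 and ZNF331. Each of the 8 had SREBP2 and RORγ regions with vehicle (all genes 70.6% and 62.7%) and with XY018 (all genes 62.7% and 61.5%). With vehicle 7 of the 8 lacked H3K27ac, ZNF331 having 12 and 13 fragments. Over all genes 9.69% had both factors and no H3K27ac with vehicle. ZNF677 had an H3K27ac region of 10 fragments with XY018 alone. SREBP2 fragments were 55 (41.4 to 71.6) and 35 (24.4 to 48.7) at ZNF471, 53 and 33 at ZNF677, 44 and 33 at ZNF382, and 21 and 9 at ZNF132. RORγ fragments at the same genes were 43 and 49, 42 and 40, 52 and 42, and 7 and 5. The median over the list went from 36 to 29 SREBP2 fragments and from 36.5 to 38.5 RORγ fragments. DNA methylation itself was not measured here.

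Among 5 members with known roles in genome upkeep and stress, H3K27ac was called with vehicle at ZNF274, ZNF473 and ZNF224 (all genes 66.8%). ZNF274, which recruits SETDB1 to the 3′ ends of zinc finger genes, had 89 and 84 H3K27ac, 16 and 16 SREBP2 and 10 RORγ fragments with vehicle alone. ZNF420, a regulator of p53, had 30 and 26 SREBP2 and 38 and 37 RORγ fragments and no H3K27ac. ZNF473, which acts in histone mRNA 3′ end processing, had 19 and 22 H3K27ac fragments and 14 of SREBP2 with vehicle alone. ZNF224 had 15 and 22 H3K27ac fragments, and 4 of RORγ with vehicle alone. ZNF350, a partner of BRCA1, had 17 H3K27ac fragments with XY018 and no other region. The 5 thus did not share a pattern.

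Of 4 members chosen as lacking a KRAB box, all had H3K27ac under both treatments (all genes 66.8% with vehicle and 68.0% with XY018). ZNF536, a regulator of neuronal differentiation, had 72 and 60 SREBP2, 86 (68.8 to 106) and 85 (67.9 to 105) RORγ, and 17 and 28 H3K27ac fragments. The SREBP2 vehicle summit lay 143621 bp from the representative start (chr19:30719439-30720151), with RORγ at the same alternative start and H3K27ac at another one nearby. These were the highest SREBP2 and RORγ values of the family. ZNF507 had 35 and 27, 18 and 10, and 137 and 158. ZNF146 had 41 and 57 H3K27ac fragments and ZNF260 48 and 49, with SREBP2 at 7 and 14 with vehicle alone.

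Genes of the KRAB silencing pathway, whose products act with these proteins, were listed beside the members. H3K27ac was called with vehicle at 15 of 15 (all genes 66.8%), SREBP2 at 13 (70.6%) and RORγ at 14 (62.7%). TRIM28, the corepressor that KRAB boxes bind, had 32 and 24 SREBP2, 38 and 26 RORγ, and 104 and 129 H3K27ac fragments. SETDB1 had no SREBP2 region, 5 and 6 RORγ fragments and 72 and 78 of H3K27ac. The median SREBP2 ratio of XY018 to vehicle over 13 of these genes was 0.635 (all genes 0.621), with 12 lower and DNMT1, the maintenance methyltransferase, higher at 42 and 57 fragments.

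The difference with XY018 was first read from whether calls were also made there. Of the 115 SREBP2 promoter calls with vehicle, 75 were also called with XY018 (65.2%, 55.8 to 73.9), against 87.5% over all genes, 82.3% over other genes of 19q and 88.4% over ZNF genes elsewhere. For RORγ it was 69 of 85 (81.2%, 71.2 to 88.8), against 91.7%. For H3K27ac it was 94 of 99 (94.9%, 88.6 to 98.3), against 96.8%. The smaller kept share was thus clearest for SREBP2, and the calls that were not kept were the weaker ones, with a median of 12.5 vehicle fragments against 30 for those kept. Calls with XY018 alone numbered 3 (SREBP2), 12 (RORγ) and 12 (H3K27ac) of the 164 members, against 174, 803 and 681 of all 20090 genes.

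SREBP2 calls were then compared at like strength. Of members with 1 to 9 vehicle fragments 4 of 18 were kept (22.2%), against 22.3% over all genes of that strength. Between 10 and 19 fragments, 9 of 32 were kept (28.1%), against 68.7% over all genes, 48.6% over other genes of 19q and 79.2% over ZNF genes elsewhere. Between 20 and 39 fragments it was 45 of 48 (93.8%), against 97%, and all 17 members with at least 40 were kept. The difference from other genes lay mainly in the class of 10 to 19 fragments. By combination, 41 of 43 SREBP2 calls were kept with RORγ and H3K27ac, 25 of 30 with RORγ and no H3K27ac, 9 of 35 with H3K27ac and no RORγ, and 0 of 7 with neither. Over all genes the kept shares in these combinations were 97%, 87.8%, 47.2% and 20.6%.

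The SREBP2 calls lost with most fragments were at ZNF180 (23, interval 14.6 to 34.5), ZNF283 (21), ZNF888 (20) and ZNF813 (18). The first 3 had H3K27ac under both treatments, 33 and 26 fragments at ZNF180, 47 and 37 at ZNF283, and 40 and 33 at ZNF888, and none of the 4 had RORγ. ZNF793, ZNF566 and ZNF600 had SREBP2 with XY018 alone, at 8, 7 and 6 fragments. Counts this low are near the smallest that were called.

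RORγ calls present with vehicle alone were strongest at ZNF599 (25 fragments, 16.2 to 36.9), ZNF606 (18), ZNF610 (11) and ZNF274 (10). Those with XY018 alone were strongest at ZNF805 (15), ZNF550 (10), ZNF146 (8) and ZNF446 (7). The H3K27ac promoter call was absent with XY018 at ZNF599 (27), ZNF610 (17), ZNF665 (17) and ZNF530 (15). Each of these members had 1 H3K27ac region in the rest of the gene with XY018 and none there with vehicle. H3K27ac was called at the promoter with XY018 alone at ZNF235 (21), ZNF841 (21), ZNF792 (18) and ZNF350 (17). ZNF599 and ZNF610 thus had neither a RORγ nor an H3K27ac promoter call with XY018, while SREBP2 at ZNF610 was 5 and 14 fragments. At ZNF599 an H3K27ac region of 43 fragments with XY018 (chr19:35263611-35263936) lay within the gene just outside the promoter window. Its missing promoter call is therefore not a loss of H3K27ac at that end of the gene.

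Fragments at regions called in both libraries were compared as pileup over the genome-wide background of each library. The median XY018 to vehicle ratio of SREBP2 was 0.590 (quartiles 0.451 and 0.706) over 71 members, of which 70 were lower with XY018 (98.6%, against 98.1% of all genes). The median of all genes was 0.621, and the counting interval of a single member lay below 1 at 30 of the 71 (42.3%, against 37.0% of all genes). Both SREBP2 libraries differ in fragment length, 185 and 205 bp, and scaling by tags per kb gave 0.654. Treatment and library cannot be told apart with 1 library each.

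Among members with at least 20 fragments in both libraries, the highest SREBP2 ratios were 1.07 (0.596 to 1.93) at ZNF575 with 23 and 29 fragments, 0.984 (0.619 to 1.57) at ZNF540 and 0.798 (0.481 to 1.32) at ZNF296 with 35 and 33. The lowest were 0.434 (0.240 to 0.763) at ZNF264 with 39 and 20, 0.527 (0.331 to 0.830) at ZNF677 and 0.539 (0.342 to 0.838) at ZNF471. The intervals of the highest all included 1 and those of the lowest did not.

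RORγ pileup had no common direction. The median ratio was 1.11 (quartiles 0.872 and 1.25) over 63 members, of which 27 were lower (42.9%, against 55.2% of all genes). The median of all genes was 0.967. No single member had an interval that left out 1, where over all genes 1.65% lay below 1 and 1.13% above it. From the deposited fold the median was 0.997, so no direction held. With at least 20 fragments in both libraries, the highest ratios were 1.40 (0.814 to 2.44) at ZNF792 and 1.37 (0.740 to 2.56) at ZNF416 with 21 and 26 fragments, and the lowest 0.683 (0.377 to 1.21) at ZNF787 with 34 and 21 and 0.737 (0.409 to 1.3) at ZNF264 with 33 and 22. A difference was not detectable at any member at this depth.

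H3K27ac was higher with XY018 at most members, as at most genes. The median ratio was 1.23 (quartiles 0.962 and 1.42) over 91 members, 28 of which were lower (30.8%, against 19.5% of all genes), and the median of all genes was 1.27. Intervals lay above 1 at 20 members and below 1 at 2, ZNF766 and ZNF550. The strongest were ZNF787 with 229 (200 to 261) and 296 (263 to 332) fragments, ZNF581 with 224 and 253, ZNF574 with 210 and 267, and ZNF580 with 170 and 253. Their ratios were 1.42, 1.24, 1.39 and 1.63, each with an interval above 1. With the same minimum, the highest ratios were 1.93 (1.28 to 2.96) at ZNF576 with 38 and 67 fragments, and 1.79 at ZNF444 with 44 and 72 and at ZNF526 with 33 and 54. The lowest with that minimum were 0.618 (0.349 to 1.07) at ZNF460 with 39 and 22, 0.677 (0.449 to 1.01) at ZNF611 with 68 and 42, and 0.687 (0.501 to 0.937) at ZNF766.

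**Figure D4:**
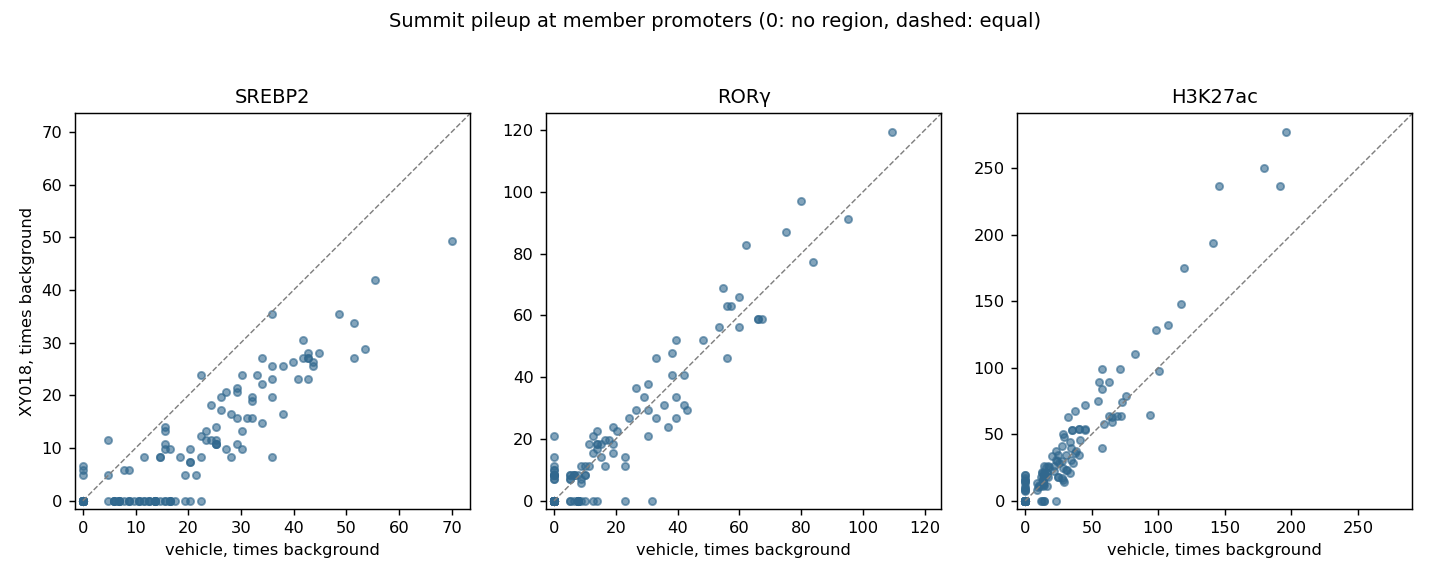
Summit pileup over background at the 164 member promoters with XY018 (vertical axis) against vehicle (horizontal axis), for SREBP2, RORγ and H3K27ac, with 0 for no region and the dashed line for equality. SREBP2 points lie mostly below the line (median ratio 0.590 where both are called), RORγ points scatter on both sides of it (1.11) and H3K27ac points lie mostly above it (1.23).

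Position along 19q went with large differences. Member starts fell into 11 clusters separated by over 1 Mb, of which 4 held more than 20 members. In the cluster at chr19:44029649-45579736 only 7 of 24 members had SREBP2 with vehicle (29.2%, 12.6 to 51.1), 6 RORγ (25%, 9.77 to 46.7) and 13 H3K27ac (54.2%). With XY018, SREBP2 and RORγ were each called at 3. At chr19:55987984-58992597, 51 of 59 had SREBP2 (86.4%, 75 to 94.0) and 41 had RORγ (69.5%, 56.1 to 80.8). The cluster at chr19:52074536-54083523, whose 40 members all carry a KRAB pattern, went from 28 SREBP2 calls to 12, and had 14 RORγ calls under each treatment.

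Of the 13 members without a promoter region in any of the 6 libraries (7.93%, against 17.5% of all genes), 7 lay in the cluster at 44 to 45 Mb, namely ZNF404, ZNF221, ZNF284, ZNF233, ZNF112, ZNF285 and ZNF229. The other 6 were ZNF780B, ZNF175, ZNF468, ZNF304, ZNF548 and ZNF417. Median GC in the windows of representative starts was 45.4% in the cluster at 44 to 45 Mb, against 52.1% over all members. Base composition and position move together here and their parts were not tested.

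Adjacent genes could differ sharply. Between 55987984 and the start of the next block, 9 consecutive members without a KRAB pattern, ZNF628, ZNF579, ZNF524, ZNF865, ZNF784, ZNF580, ZNF581, ZNF787 and ZNF444, had 44 to 229 H3K27ac fragments with vehicle. The next 7, ZNF582, ZNF583, ZNF667, ZNF471, ZNF470, ZNF71 and ZNF835, had 31 to 66 RORγ fragments and no H3K27ac region with vehicle except 11 fragments at ZNF583. ZNF583 had 63 (48.4 to 80.6) and 69 (53.7 to 87.3) RORγ fragments. This boundary was noticed in the values and is given as a description.

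A protein pattern for the KRAB box was found at 136 members and not at 28. Members without it had more regions, SREBP2 at 92.9% against 65.4% with vehicle and 71.4% against 42.6% with XY018, and H3K27ac at 96.4% against 52.9% with vehicle. RORγ was at 60.7% against 50% with vehicle and 67.9% against 45.6% with XY018. The windows of their representative starts were also richer in GC, with a median of 58.6% against 50.1%. The exception among them for H3K27ac was ZNF835.

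Promoter GC, in 3 classes of 54 or 55 members, went with all 3 antibodies. GC and CpG were taken in the window of the representative start, whereas a call counted at any annotated start. With vehicle the strongest RORγ region touched the representative window at 51 of 85 members, so the classes often describe other DNA than that called. From the lowest to the highest class, SREBP2 was called with vehicle at 47.3%, 74.5% and 88.9%, where all genes within the same GC limits had 33.2%, 68.0% and 90.9%. With XY018 the members had 21.8%, 52.7% and 68.5%, against 26.2%, 55.4% and 83.4%. RORγ was at 43.6%, 49.1% and 63.0%, against 28.7%, 55.5% and 81.8%, and H3K27ac at 41.8%, 61.8% and 77.8%, against 34.9%, 69.0% and 82.3%. In the class with most CpG for its base composition, H3K27ac was at 63.6% of members and 89.6% of all genes. Among genes with a GC-rich representative window, RORγ, and SREBP2 with XY018, were thus called at a smaller share of members than of all genes.

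Short motifs were searched on both strands in the 250 bases upstream of the representative start, where a match is a description and not a site. The CCAAT box was in 35.4% of member and 34.1% of all promoters, and the GC box GGGCGG in 57.9% and 58.6%. The ROR half-site AGGTCA was in 6.71% against 9.99%, the sterol element TCACNCCAC in 1 member (0.610%) against 0.971%, and the E-box CACGTG in 4.88% against 7.86%. The ETS motif CCGGAAG was in 29.3% against 11.8%. Of the printed promoters, that of ZNF540 holds the ROR half-site, that of ZNF471 a GC box, and those of ZNF787 and ZNF180 the ETS motif and a GC box.

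Neighbours can share a start region. In 8 head-to-head pairs member starts lie 15 to 646 bp apart, among them ZNF565 and ZNF146, ZNF529 and ZNF382, ZNF569 and ZNF570, and ZNF540 and ZNF571, and 25 members share a promoter window with another protein-coding gene. ZNF529 and ZNF382 had the same SREBP2 and RORγ fragments, 44 and 33, and 52 and 42, from shared regions. At 29 members (17.7%, against 11.9% of all genes) under 90% of the 50-base words of the promoter window were unique in the genome, where multiply placed tags, which the study removed, could not count. SREBP2 with vehicle was called at 51.7% of these 29 and 74.1% of the other members, RORγ at 37.9% and 54.8%, and H3K27ac at 62.1% and 60%. With XY018 the order of SREBP2 turned, at 51.7% and 46.7%. The part of uniqueness in the calls was not tested.

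The exon that encodes the zinc fingers was examined separately, as the exon that sets the DNA target of each protein. Over the 160 members with all fingers in the last coding exon, SREBP2 with vehicle had a summit in 22 of these exons, and all of these had over 55% GC (62.1 to 75%). None of the 138 exons with lower GC, up to 53.3%, had one. RORγ summits were in 20 of the 22 and in 1 other (ZNF766, 4 fragments), and H3K27ac summits in 16 of the 22. The GC limits were chosen after the values were seen.

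Sequence from 3 such exons shows the contrast, 200 bases each, in the strand of the gene, with CpG in capitals. ZNF575 (chr19:44039181-44039380, plus strand) had most SREBP2 fragments, ZNF324 (chr19:58983291-58983490, plus strand) most among KRAB members, and ZNF677 (chr19:53740919-53741118, minus strand) the lowest GC, and no region. They hold 22, 18 and 2 CpG.
ZNF575: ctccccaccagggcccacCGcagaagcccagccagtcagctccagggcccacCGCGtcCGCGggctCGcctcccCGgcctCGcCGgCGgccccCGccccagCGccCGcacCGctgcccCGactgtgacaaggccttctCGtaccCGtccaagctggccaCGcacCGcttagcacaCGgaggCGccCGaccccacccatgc
ZNF324: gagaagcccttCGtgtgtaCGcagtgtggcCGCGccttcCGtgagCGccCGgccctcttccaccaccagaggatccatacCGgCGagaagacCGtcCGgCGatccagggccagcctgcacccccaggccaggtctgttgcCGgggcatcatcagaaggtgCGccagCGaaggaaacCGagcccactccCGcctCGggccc
ZNF677: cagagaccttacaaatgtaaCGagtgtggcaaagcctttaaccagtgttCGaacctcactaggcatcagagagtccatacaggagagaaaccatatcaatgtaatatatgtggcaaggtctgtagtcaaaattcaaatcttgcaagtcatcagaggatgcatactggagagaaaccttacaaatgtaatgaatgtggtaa
With XY018, SREBP2 summits were in 20 of the 22 and regions overlapped 21, RORγ 22 and 22, and H3K27ac 14 and 17. That of ZNF787 with XY018, at 45 fragments, covered the exon but had its summit 16 bp outside. By overlap, 22 of the 22 exons held SREBP2 with vehicle, 21 RORγ and 18 H3K27ac.

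ZNF575 had 73 and 64 SREBP2, 62 and 57 RORγ, and 66 and 56 H3K27ac fragments in its finger exon, more SREBP2 than the 23 and 29 at its promoter. ZNF865 had 67 and 46, 68 and 64, and 31 and 35, and ZNF579 had 57 and 57, 77 and 58, and 40 and 46. The median over the 22 was 46.5 SREBP2 fragments with vehicle, above the 23 of member promoters. The weakest was ZNF576 with 8.

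Members without a KRAB pattern had an SREBP2 summit in 19 of 25 of these exons (76.0%, 54.9 to 90.6) and those with it in 3 of 135 (2.22%), ZNF71, ZNF324B and ZNF324, which are the 3 KRAB members with exons over 55% GC. Of those without a KRAB pattern, the 6 exons without a summit, at ZNF180, ZNF260, ZNF345, ZNF146, ZNF134 and ZNF329, had 38.7 to 45.7% GC. Base composition thus separated the exons completely in the SREBP2 vehicle library. At ZNF genes elsewhere, 35 of 43 exons over 55% GC had an SREBP2 summit (81.4%, 66.6 to 91.6), and 0 of 182 and 0 of 36 in the lower classes did. Of the same 43, 32 had RORγ.

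The SREBP2 ratio at these exons was 0.663 over 20 exons, all 20 lower, the RORγ ratio 1.01 with 8 of 20 lower, and the H3K27ac ratio 0.930 with 7 of 13 lower. The median distance from these 22 exons to the nearest transcript start was 3631 bp, against 7577 bp for exons under 45% GC and 5499 bp for those between, so distance moved with GC and its part was not tested.

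**Figure D5:**
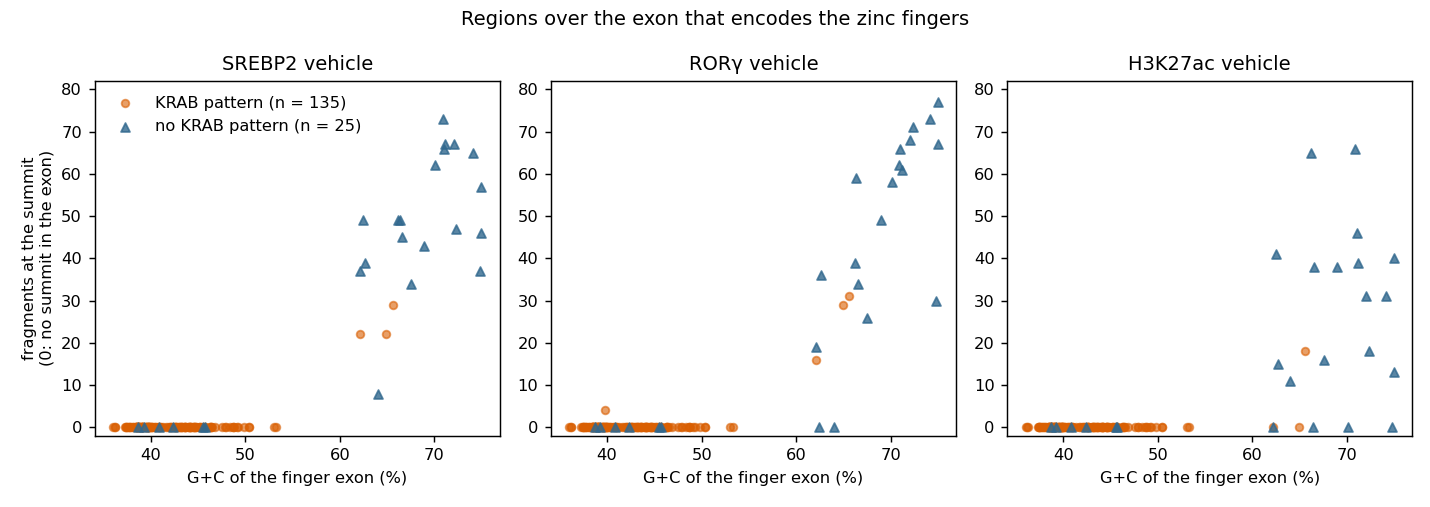
Fragments at the highest summit in the finger exon (vertical axis, 0 for no summit in the exon) against the GC content of that exon (horizontal axis, percent) for 160 members with vehicle, with circles for members with a KRAB pattern and triangles for those without. All SREBP2 summits are at exons of 62.1% GC or more, and the exons at or below 53.3% are at 0 except for 4 RORγ fragments at ZNF766.

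In the rest of the gene outside promoter windows, RORγ was the most widespread in the deposited lists, of which its own were the longest. It had a region at 135 members with vehicle (82.3%, against 66.3% of all genes) and 137 with XY018 (83.5%, against 61.7%). Other genes of 19q had 78.5% and 75.7%, and ZNF genes elsewhere 80.9% and 77.5%, so with vehicle the interval of the members (75.6 to 87.8) included both. SREBP2 had one at 113 (68.9%, against 60.9%) and 84 (51.2%, against 50%). H3K27ac had one at 37 (22.6%, 16.4 to 29.7, against 49.7%) and 43 (26.2%, against 51.0%). Per 100 kb the members had 16.1 RORγ regions with vehicle against 5.87 over all genes, 7.32 SREBP2 regions against 4.40, and 1.69 H3K27ac regions against 4.11. Other genes of 19q had more of each, 21.1, 16.1 and 14.4 per 100 kb, and ZNF genes elsewhere had 9.22, 5.32 and 2.42.

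These regions were mostly weak, with a median of 6 RORγ and 7 SREBP2 fragments with vehicle. Most of the vehicle regions had their summit in an intron, 644 for RORγ and 276 for SREBP2. Exons made up 18.6% of the bases searched, and held 14.5% of these RORγ and 18.4% of these SREBP2 summits. The intron majority was thus close to the share of intron sequence. At q of at most 1e-05 the number of members with one was 52 for RORγ and 54 for SREBP2 with vehicle, so that RORγ no longer led. With XY018 it was 51 and 45. That q was met by 10.9% of the RORγ and 25.5% of the SREBP2 regions with vehicle, against 17.4% and 39.6% over all genes. Of the SREBP2 regions 87 of 329 were kept with XY018 (26.4%, against 34.7% over all genes), of the RORγ regions 245 of 714 (34.3%, against 33.4%), and of the H3K27ac regions 63 of 72 (87.5%, against 63.2%). The median member spans 23163 bp and the median protein-coding gene 27256.5 bp.

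The strongest of these regions included finger exons and other internal exons and introns. ZNF534 had an SREBP2 region of 72 fragments with vehicle (fold 36.0) in an exon at chr19:52954448-52954945 and of 42 with XY018, and RORγ had 96 and 90 fragments there. ZNF536 had a RORγ region of 119 fragments with vehicle (fold 45.7) in an intron at chr19:30865424-30867001 and 85 with XY018. In the finger exons of ZNF837 and ZNF444, RORγ had 71 and 67 fragments with vehicle and 58 and 61 with XY018. An intron of ZNF28 held 72 RORγ fragments with vehicle (chr19:53312756-53313540) and 72 with XY018. Among H3K27ac regions with the summit inside a member, ZNF575 had 66 fragments with vehicle and 56 with XY018 in its finger exon. In an intron it had 65 and 79. A broad H3K27ac region with 212 fragments with XY018 (chr19:55995108-56001087) overlapped the end of ZNF628 but had its summit beyond the gene.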

How the data were processed

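ChIP-seq regions of 6 immunoprecipitated HCC70 libraries were analysed, grouped by the antibody and treatment in the labels, with 1 library per group. By the study's methods, single-end reads were placed on hg19 with BWA, filtered and deduplicated, whereas the submitters' processing notes list Bowtie2, and both name MACS2 2.1.0 as peak caller. Each deposited list holds the fold enrichment ratio, the −log10 p and the −log10 q of every region as the authors' caller gave them, and the deposited display score, a capped −log10 p, was not used. No region ended beyond chromosome 19 or any other chromosome of the GRCh37 reference.

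Fold and −log10 p were inverted, under the Poisson model of the caller, to whole summit fragments and the background around them (tolerance 5%), which was tested on simulated data. The most common background served as genome-wide background. Ratios of XY018 to vehicle divide summit fragments by it and use the region pair with most fragments. Genes and transcript starts came from GENCODE 44 lifted to GRCh37. A region counted when it shared 1 bp with the window. KRAB and C2H2 finger patterns were searched in translated GENCODE coding sequence, in place of the RefSeq proteins that were planned. Shares have exact (Clopper-Pearson) binomial, fragments exact Poisson and ratios exact conditional 95% intervals. Named genes were, per antibody, those with most fragments, the strongest calls of 1 treatment alone, the extreme ratios, the strongest regions in the rest of the gene, and fixed lists. Other genes are named where a count is small or a block of neighbours is described, after their values were seen. Members and lists were chosen with earlier results of these data known. Alternatives were q of at most 0.01 or 1e-05, lists of equal length, other windows and summits, unique sequence, other scalings and a fragment minimum. Python 3.11.15, pandas 2.3.3, scipy 1.17.1, pysam 0.24.0 and numba 0.67.0 were used.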

Additional observations from a re-analysis of the deposited data

How the results depend on the processing

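No paired analysis was possible because each group held 1 library and the labels give no replicate numbers, and for the same reason no library could be left out. Of 90 alternative values, 76 stayed within 1.5 times the count or within the interval of the value, and 14 moved. The median RORγ ratio, for which no direction is given, went from 1.11 to 0.997, across 1, with the deposited fold. RORγ promoter calls numbered 55 with vehicle and 53 with XY018 at q of at most 1e-05. These were 33.5% and 32.3% of members, against 51.9% and 50.7% of all genes. With the most 5′ start alone RORγ calls were 54 and 50. A window of 5 kb upstream to 1 kb downstream gave 142 and 134. H3K27ac calls were 59 and 65 when the summit had to lie in the window. The median SREBP2 ratio was 0.654 scaled by tags and 0.656 from the deposited fold. In the rest of the gene, q of at most 1e-05 left 54 and 45 members with SREBP2 and 52 and 51 with RORγ. Fewer regions by construction account for the stricter q, and otherwise the cause was not tested. The 30 members with both factors and no H3K27ac were 27 at q of at most 0.01. At 1e-05 they were 23 (14.0%, against 8.39% of all genes). They numbered 42 with the wide window and 26 with 1 start. The alternatives for this combination were chosen after seeing the data. Depth limits differences at single members, since fragments at most summits were few.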
